A study of Caenorhabditis elegans with 2 samples.

Results

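The 600 strongest DIE-1 peaks in worm gene promoters away from short RNA genes were led by those at rpl-3 and tasp-1. These are a ribosomal protein gene and a protease gene. Of the 600 summits, 88.2% lay upstream of the nearest start, against 70.4% of weaker peaks in the same promoter window. The 600 peaks were chosen from the authors' pooled list of 30000 relaxed peaks. A peak was kept when it lay on a nuclear chromosome, had a signal of 70 or more, and had its summit over 200 bp from every tRNA, snoRNA, snRNA, rRNA and miRNA gene. Its summit also had to lie in a promoter window, which ran from 1000 bp before a protein-coding transcript start to 300 bp after it. Of 1822 nuclear peaks with such a signal, 593 lay at short RNA genes, 629 lay away from them but outside every promoter window, and 600 met all criteria. The signal is the authors' enrichment value for a peak, so signal chose these peaks and is given as a description. Another 9861 promoter peaks of the same list met every criterion but had a signal under 70, and they are called the weaker promoter peaks.

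Chromatin came from whole young adult hermaphrodites of C. elegans strain RW10316, which stably expressed DIE-1 with a C-terminal GFP-FLAG tag. The worms were collected 64 hours after synchronization as L1 larvae starved after bleaching, and sonication was used to shear the chromatin. By the description in the labels an anti-GFP antibody was used for the immunoprecipitation, while the antibody field of the labels names die-1. The series held 1 group of 2 biological replicates and no other genotype, treatment or time, so no contrast between groups existed and no test was made. Cell types within the worm could not be told apart, and the control that the labels name was not analysed here. Read depth is not in the peak lists, so the 95% Wilson intervals given for shares cover counting error over peaks or genes only, and neither of these are replicates.

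DIE-1 is a C2H2 zinc finger transcription factor known in C. elegans for its part in the shaping of the embryonic epidermis and in the left and right difference of the ASE taste neurons. In worms, many transcripts receive a spliced leader in place of their first bases, so the annotated start of a gene can lie downstream of the place where RNA polymerase begins. Neighbouring worm genes that point away from each other often share a short stretch of promoter DNA, and a peak there cannot be assigned to either gene alone.

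The DNA under 8 of the strongest peaks is given here because it shows what the strongest peaks share in letters and where they differ. Each stretch reaches 50 bases to either side of the summit and is from the RefSeq genome of WBcel235 (ce11), read 5′ to 3′ on the strand of the gene with the nearest start. They are the strongest peaks outside annotated exons that the rule for printing sequences allowed. Capitals mark, on either strand, the word ACACTC, the GC-rich word CTCCGCC, the repeat GAGAGA and the letters GCNNAGTGG, which are the core of the A box, an internal promoter element of tRNA genes.
rpl-3, chrIII:3867510-3867610, plus strand: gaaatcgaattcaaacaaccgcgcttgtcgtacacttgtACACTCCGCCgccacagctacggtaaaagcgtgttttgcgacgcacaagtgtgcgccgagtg
tasp-1, chrIII:10759200-10759300, plus strand: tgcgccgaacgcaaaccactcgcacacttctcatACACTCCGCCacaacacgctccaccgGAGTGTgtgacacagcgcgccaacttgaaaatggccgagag
K12H4.5, chrIII:8043931-8044031, plus strand: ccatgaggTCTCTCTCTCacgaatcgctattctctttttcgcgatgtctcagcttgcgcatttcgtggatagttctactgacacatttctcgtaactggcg
rpl-15, chrIV:654866-654966, minus strand: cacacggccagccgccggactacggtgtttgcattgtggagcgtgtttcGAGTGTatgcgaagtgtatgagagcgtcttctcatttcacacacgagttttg
sms-3, chrIII:1601599-1601699, minus strand: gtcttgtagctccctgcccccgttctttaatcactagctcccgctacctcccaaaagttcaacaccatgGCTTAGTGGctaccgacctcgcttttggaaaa
Y17G9B.5, chrIV:4750011-4750111, plus strand: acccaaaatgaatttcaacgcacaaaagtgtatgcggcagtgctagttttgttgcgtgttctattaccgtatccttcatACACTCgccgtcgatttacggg
atx-2, chrIII:10461276-10461376, plus strand: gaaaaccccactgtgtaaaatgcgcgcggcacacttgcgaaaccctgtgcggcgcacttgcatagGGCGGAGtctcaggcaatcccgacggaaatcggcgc
W08A12.2, chrV:3686066-3686166, minus strand: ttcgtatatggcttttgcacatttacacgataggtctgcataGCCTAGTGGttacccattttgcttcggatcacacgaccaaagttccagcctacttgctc
Under the peaks at rpl-3 and tasp-1 the words ACACTC and CTCCGCC overlapped and form 1 capital run. ACACTC also lay under the peaks at rpl-15 and Y17G9B.5, and CTCCGCC under the peak at atx-2. The stretches at sms-3 and W08A12.2 held the A box core and neither of these words.

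The strongest peak lay 294 bp upstream of rpl-3, which codes for the ribosomal protein uL3 of the large subunit (chromosome III, 3867440 to 3867709), with 194.2 in replicate 1, 246.3 in replicate 2 and 437.2 in the pooled list. The peak 57 bp upstream of tasp-1, the worm homolog of the threonine protease taspase (chromosome III, 10759090 to 10759444), had 193.9, 186.7 and 379.4 in the same order. At K12H4.5, an uncharacterized gene (chromosome III, 8043823 to 8044090), the summit lay 506 bp upstream and the values were 137.7, 194.2 and 336.7. These 3 peaks had the highest pooled signal of the 600, and tasp-1 was the only one of them with the higher value in replicate 1. The peak at rpl-15, for the ribosomal protein eL15, had 115.4 and 163.3 in the replicates and 285.4 pooled (chromosome IV, 654787 to 655061, summit at -340 bp). At Y69A2AR.31, which codes for a GDNF/GAS1 domain protein, the summit at -979 bp had 96.2 and 174.8 in the replicates and 274.9 pooled (chromosome IV, 2664852 to 2665075). The peak at sms-3, a putative sphingomyelin synthase gene, had 123.8 and 142.9 in the replicates and 267.4 pooled (chromosome III, 1601525 to 1601750, summit at -505 bp). All of these had the higher value in replicate 2.

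Ranks 7 to 10 all lay at pairs of genes that point away from each other. Y17G9B.5, named in RefSeq for a conserved signalling intermediate of the Toll pathway, shared its peak with rpl-20 (130.9 and 117.1 in the replicates, 250.2 pooled; chromosome IV, 4749982 to 4750160, summit at -179 bp). The Parkin coregulated gene homolog pcrg-1 followed (91.7, 159.5 and 250.1 pooled; chromosome II, 7200193 to 7200410, -238 bp), and the summit also lay inside mrpr-1, the gene for the RNA of RNase MRP. The START domain gene tag-340 had 101.4, 144.9 and 245.6 pooled (chromosome III, 4899857 to 4900043, -582 bp). The ataxin-2 homolog atx-2, an RNA-binding protein gene, had 99.97, 137.6 and 242.5 pooled (chromosome III, 10461237 to 10461428, -63 bp). Replicate 2 had the higher value at the last 3 of these 4 peaks.

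The other 15 of the 25 strongest peaks had pooled signals from 174.3 to 240.6. They were nearest to W08A12.2, listed as a neuropeptide-like gene, cdc-48.1, for a segregase of protein degradation, T13C5.6, for a phosphatidic acid phosphatase domain protein, tos-1, a target of splicing, and D2023.1, a serpentine receptor gene. Next came a second sms-3 peak, ftt-2, for a 14-3-3 adaptor protein, set-16, for a histone methyltransferase, rpl-35, for ribosomal protein uL29, and bet-2, for a bromodomain protein. The list ended with cox-5B, for a cytochrome c oxidase subunit, kel-3, for a BTB domain protein, a second peak of Y69A2AR.31, D2096.7, for an ELYS domain protein, and Y22D7AL.10, for the mitochondrial 10 kDa heat shock protein. Among these 25, the replicate values ran from 67.4 at kel-3 to 194.2 at rpl-3 in replicate 1, and from 80.7 at Y22D7AL.10 to 246.3 at rpl-3 in replicate 2. Peaks of the list had a usual width of 436 bp with the summit in the middle, but 19 of these 25 were narrower, as were 12 of the 575 that followed. The 31 narrower peaks were 111 to 355 bp wide and had a median signal of 186.8, against 88.2 for the others.

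**Figure D1:**
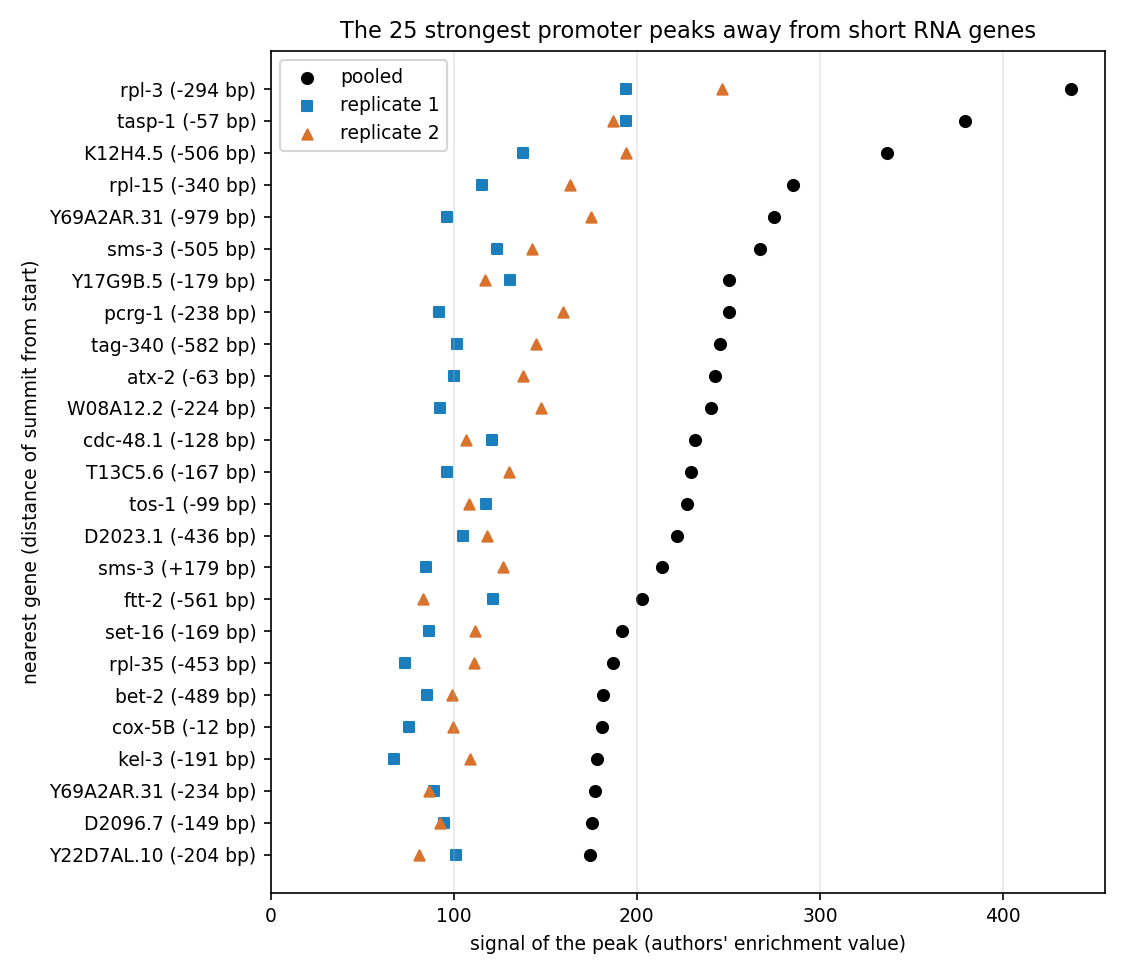
Signal of the 25 strongest promoter peaks away from short RNA genes (x axis, the authors' enrichment value) by nearest gene (y axis, with the distance of the summit from the start), for the pooled list (circles), replicate 1 (squares) and replicate 2 (triangles). The pooled values fall from 437.2 at rpl-3 to 174.3 at Y22D7AL.10, and each peak is present in both replicates.

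Ribosomal protein genes were among the groups with the largest shares of genes that had a peak. Over all 19973 nuclear protein-coding genes, 730 (3.65%) had one of the 600 summits in their promoter window, and 575 genes were the nearest to one. Of 50 genes for proteins of the large ribosomal subunit, 12 (24%, interval 14.3 to 37.4) had a peak, led by rpl-3, rpl-15, rpl-20 and rpl-35 with the values above and 73.2, 111.0 and 186.8 for replicate 1, replicate 2 and the pooled list at rpl-35. For the small subunit 7 of 31 (22.6%, interval 11.4 to 39.8) had a peak, led by rps-28 (52.6, 88.9 and 140.6 pooled), rps-19 (76.5, 64.5 and 140.6 pooled), rps-1 (74.6, 64.1 and 136.7 pooled) and rps-24 (51.5, 64.0 and 115.9 pooled). Both shares were above that of all genes, which is a description, since the lists were chosen with earlier results of these data known. The nearest start belonged to the ribosomal protein gene at 7 of the 12 and 5 of the 7. At rps-19 it belonged to hsr-9.

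Genes of protein synthesis beside the ribosome had smaller counts. Of 43 translation factor genes 6 (14%, interval 6.56 to 27.3) had a peak: iff-2, for initiation factor 5A (145.0 pooled), ifet-1, for a translational repressor, which shared the rps-1 summit, eef-1A.2, for elongation factor 1-alpha (128.6), and erfa-3, for a release factor (121.4), came first. Aminoacyl-tRNA synthetases had 3 of 32 (9.375%, interval 3.24 to 24.2), namely ears-2 (136.3), vars-1 (79.2) and fars-3 (75.9). The mitochondrial ribosome had 4 of 70 (5.71%, interval 2.24 to 13.8). There mrps-30 (75.4) and mrpl-50 (73.8) were ahead of mrpl-1 and mrps-24, which shared 1 summit (73.5). Ribosome biogenesis and nucleolus genes had 6 of 77, led by xrn-2, for an exoribonuclease (125.1). That list was drawn by name pattern and also holds wdr-23 (101.6), imp-2 (85.6) and other genes with no known part in ribosomes, while exos-8 (89.7) belongs to the RNA exosome. Of 32 genes that a name pattern put in the list for tRNA processing and export 0 had a peak (interval 0 to 10.7%). This interval and those of the synthetases, the mitochondrial ribosome and ribosome biogenesis hold the share of all genes. The pattern left out metl-1, for a tRNA methyltransferase, whose window held the summit nearest to W02B12.11 (63.5 and 35.4 in the replicates, 100.1 pooled), and Y43B11AR.3, for a TruB domain protein (49.2, 118.6 and 170.1 pooled), both chosen after their values were seen.

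Chaperone genes, whose products fold other proteins, had a peak at 16 of 68 (23.5%, interval 15 to 34.9), also above the share of all genes. The highest were hsp-60, the mitochondrial chaperonin, which shares the promoter of Y22D7AL.10 (101.1, 80.7 and 174.3 pooled), bag-1, an Hsp70 regulator (62.6, 95.6 and 155.6 pooled), hsp-3, an Hsp70 of the endoplasmic reticulum (62.9, 79.7 and 142.2 pooled), and dnj-9, a J domain protein (59.0, 65.1 and 121.9 pooled). The chaperone gene was the nearest gene at 8 of the 16, a share of 11.76% of the list. Of all 19973 genes, 575 were the nearest to a peak. Among 69 genes of ubiquitin enzymes and cullins 9 (13.0%, interval 7.02 to 23.0) had a peak, namely cdc-48.1 (231.8), usp-4 (172.5), the polyubiquitin gene ubq-1 (132.1), the ubiquitin-activating enzyme gene uba-1 (109.9) and 5 others. Of 33 proteasome genes 2 (6.06%, interval 1.68 to 19.6) had one, namely rpn-10 (77.6) and pas-3 (71.2, nearer to use-1). The proteasome interval holds the share of all genes.

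Genes of the nucleus followed. Nuclear pore and import genes had a peak at 8 of 43 (18.6%, interval 9.74 to 32.6), with ima-1, an importin alpha (157.1, nearer to dvc-1), npp-3 (96.2), npp-7 (92.4, nearer to unc-40) and npp-8 (89.7) the highest. That share was 9.302% when only the nearest start counted and 2.326% at a signal of 100 or more. By nearest start only, 575 of all 19973 genes had a peak, and at a signal of 100 or more the share of all genes was 1.34%. Chromatin factors had 16 of 110 (14.5%, interval 9.16 to 22.3), with set-16 (192.0), swsn-7, of a nucleosome remodeller (142.3), cbp-1, an acetyltransferase (135.6), and lin-54, of the DREAM complex (124.9, nearer to rpl-12). Cell cycle and replication genes had 11 of 87 (12.6%, interval 7.21 to 21.2). Apart from cdc-48.1, which stands in this list too, the highest were mcm-2, of the replicative helicase (102.7), cyclin E cye-1 (101.2, nearer to pqn-21) and cdk-7 (96.0). Splicing proteins had 9 of 83, led by prp-19 (132.9, nearer to K10D2.5), rsp-6 (122.1), mog-4 (112.2) and rsp-1 (85.3, nearer to rsp-2). RNA polymerase subunits and general factors had 7 of 82, led by mdt-6 (111.3, nearer to Y57E12AL.1), taf-4 (109.2), mdt-8 (104.6, nearer to Y62F5A.12) and rpac-19 (94.8). This share of 8.537% was 3.659% in the narrow window of 500 bp before to 100 bp after the start. In that window the share of all genes was 2.69%. Core histones had 7 of 74, with the H4 genes his-37 (142.7), his-60 (121.7) and his-67 (89.7) and the H3 gene his-59 (110.5, nearer to his-60) the highest, and whether reads of near-identical histone genes were placed uniquely was not checked.

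Genes of energy supply and membrane traffic also had peaks. The respiratory chain and ATP synthase had 9 of 68 (13.2%, interval 7.12 to 23.3), led by cox-5B (181.1), cox-5A (135.7), cox-6B (122.3, nearer to Y71H2AM.20) and nduf-2.2 (115.1, nearer to dlc-1). The vacuolar proton pump had 4 of 21 (vha-2 136.2, vha-1 96.9, vha-13 93.8 and vha-9 71.9), and glycolysis and the citric acid cycle had 5 of 43, led by sucl-1 (121.2) and cts-1 (103.1). Small GTPases and vesicle traffic had 14 of 146 (9.59%, interval 5.798 to 15.5), led by vps-37 (153.4), trap-3 and sec-61.B, which share 1 summit (143.7), and tomm-20 (120.4). Insulin signalling had 3 of 17, namely ftt-2 (202.5), akt-2 (110.1) and par-5 (87.4), of which ftt-2 and par-5 are 14-3-3 genes with many partners and the par-5 summit is nearer to M117.3. The insulin share rests on few genes: it was 17.65%, but 5.882% with that narrow window or without peaks near other RNA classes, and 41.18% with the wide one (2000 and 500 bp). In the same order of settings, the share of all genes was 2.69%, 3.16% and 5.44%. The Wnt list had 2 of 30 (6.67%, interval 1.85 to 21.3), namely lit-1 (97.8) and mig-5 (96.2). Its interval holds the share of all genes.

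Peaks were rare at chemoreceptors, the receptor families of sensory neurons. They had 7 of 1365 (0.513%, interval 0.249 to 1.05), below the share of all genes. In the list, which the name pattern sets, the highest were srh-2 (128.4), sre-1 (107.1, nearer to B0495.9), srh-76 (106.1) and sri-5 (92.4). The serpentine receptor gene D2023.1 (222.0), among the 25 strongest above, has a name outside the pattern and is not counted. Cuticle collagens had 3 of 177 (1.69%, interval 0.578 to 4.86), namely col-181 (83.4), and col-159 and col-160, which share 71.6. Homeobox genes had 2 of 89 (2.25%, interval 0.618 to 7.83), namely pal-1 (76.9) and ceh-38 (70.9). Both intervals hold the share of all genes. Nuclear hormone receptors had 9 of 274 (3.28%, interval 1.74 to 6.12), led by nhr-68 (147.2, nearer to H12C20.7), nhr-1 (107.2), nhr-35 (91.0) and nhr-48 (87.2), a share close to that of all genes. For the known roles of DIE-1, 1 of 50 genes of epidermal morphogenesis (2%) had a peak, the actin regulator wve-1 (74.7). Of 29 genes of ASE asymmetry 0 did, which allows a share of up to 11.7%. The intervals of the epidermal and ASE lists also hold the share of all genes, so a lack of peaks at these genes is not shown. Among genes with any promoter peak of the relaxed list away from short RNA genes, 8.99% of all genes (730 of 8122), 26.1% of large subunit genes and 3.91% of chemoreceptors had one of the 600. Of the 730 genes, 550 (75.3%) stood in none of the 28 lists.

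**Figure D2:**
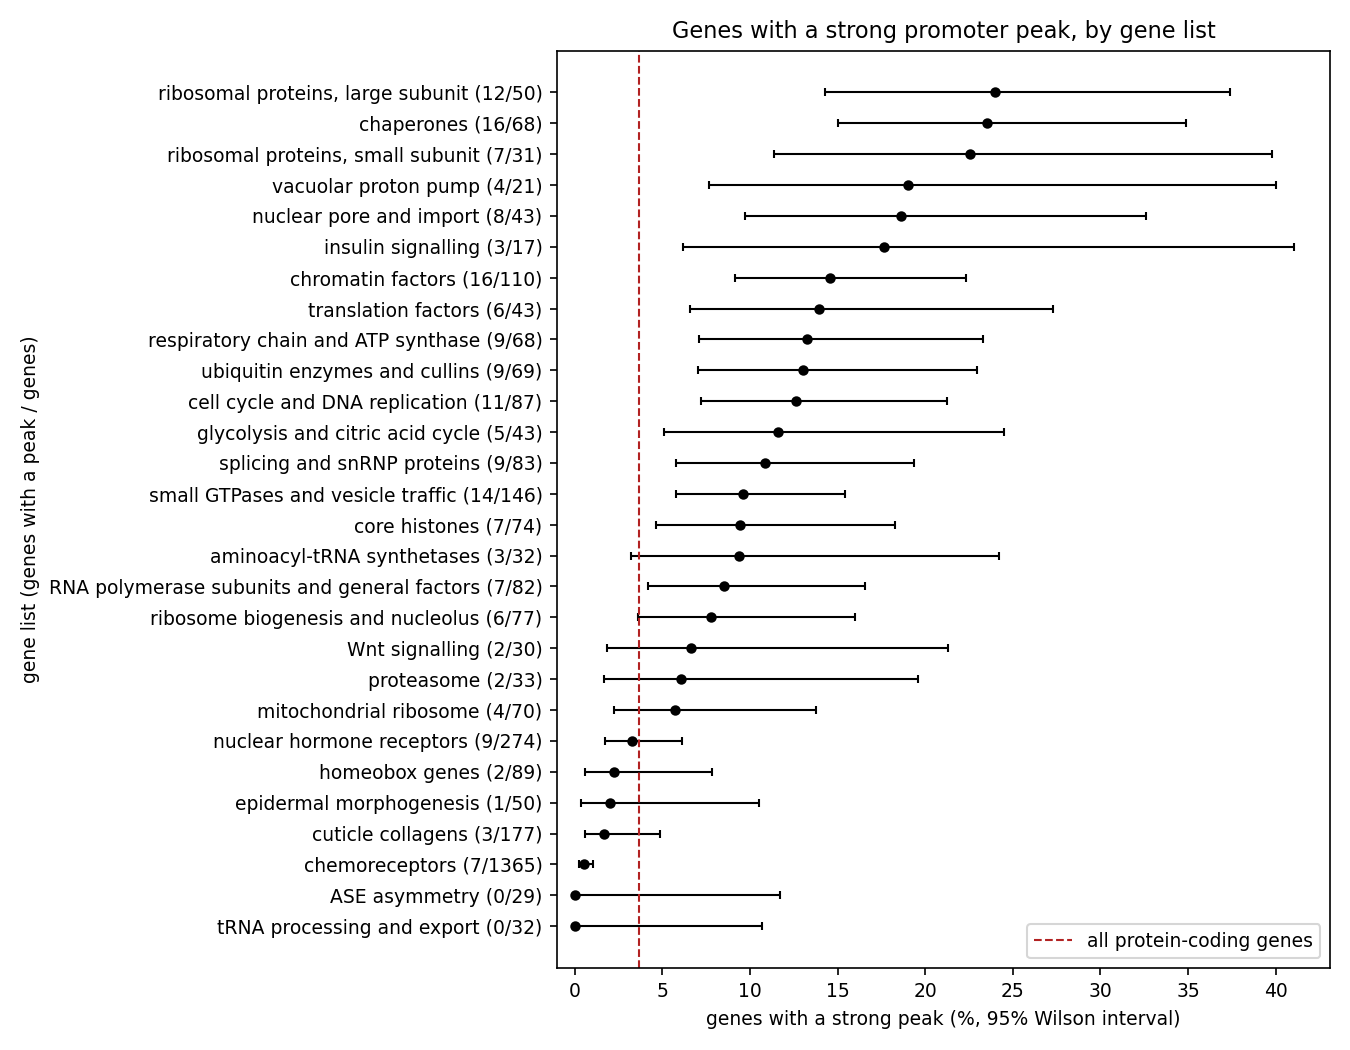
Share of genes with one of the 600 summits in their promoter window (x axis, percent, points) with 95% Wilson intervals (bars) for 28 gene lists (y axis, genes with a peak over genes in the list), and the share of all protein-coding genes (dashed line, 3.65%). The ribosomal protein and chaperone lists lie at 22.6 to 24%, and chemoreceptors lie at 0.513%.

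Summits gathered just upstream of the annotated starts. The median distance to the nearest start was -220 bp (quartiles -443 and -94.5 bp), against -176 bp for the weaker promoter peaks. Of the 600, 529 (88.2%) lay upstream and 71 (11.8%) downstream, while 70.4% of the weaker ones lay upstream. The window reached 1000 bp upstream and only 300 bp downstream, so the choice itself favoured summits upstream. The share upstream was similar, 87.6%, for 161 peaks with a signal of 70 or more at short RNA genes that lay in a promoter window. The fullest 100 bp stretch, from 200 to 100 bp upstream, held 122 of the 600 summits (20.3%, against 11.6% of the weaker peaks). Exactly 300 (50%) lay within 300 bp upstream, against 32.3%. The first 100 bp downstream held 44 and the last 100 bp of the window 9. By annotation, 397 summits (66.2%) lay outside protein-coding genes, 86 in introns, 45 in coding exons, 39 in 3′ UTRs and 33 in 5′ UTRs, where an overlap counted once in the order coding exon, 5′ UTR, 3′ UTR, intron. Coding exons held 7.5% of the 600 and 27.6% of the weaker peaks.

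**Figure D3:**
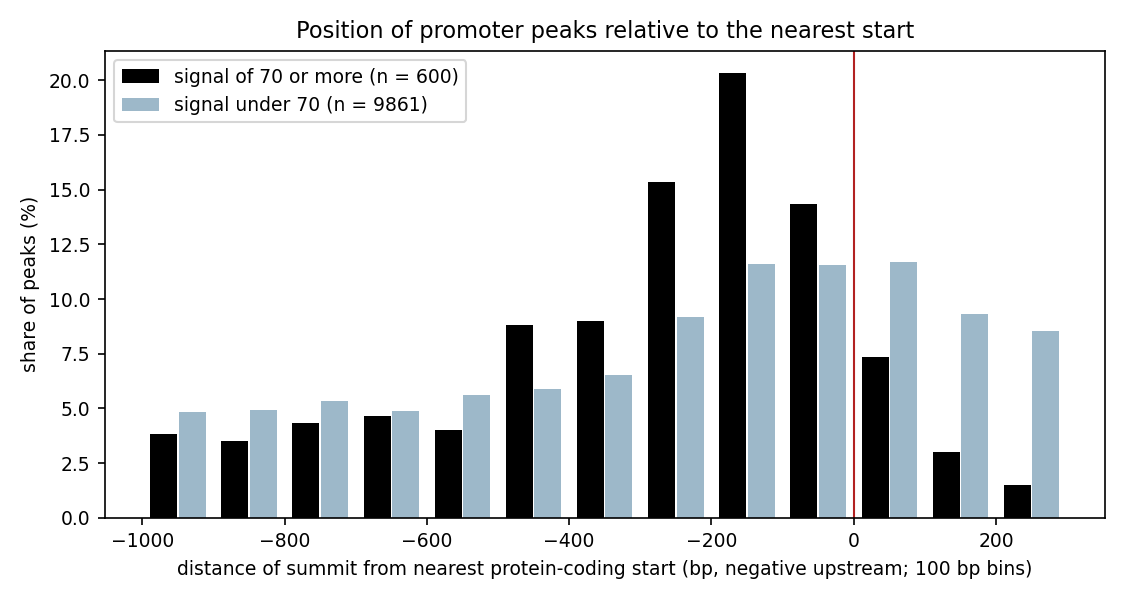
Share of promoter peaks (y axis, percent) in 100 bp stretches of distance from summit to the nearest protein-coding start (x axis, bp, negative upstream), for the 600 peaks with a signal of 70 or more (black) and the 9861 weaker ones (blue). The black bars are highest from 200 to 100 bp upstream, at 20.3%, and low downstream of the start.

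At 130 of the 600 peaks (21.7%, interval 18.6 to 25.1) the summit lay in the windows of both genes of a pair that points away from each other, against 12% of the weaker promoter peaks. Among summits within 300 bp upstream of the nearest start, the shares were 96 of 300 (32%) and 551 of 3188 (17.3%). At 116 of the 130 peaks the summit lay between both starts, and 1 pair, aka-1 with ubc-6, held 2 of the 130. The starts were a median of 561.5 bp apart (60 to 1831 bp), close to the 572 bp at weaker peaks of this kind. The strongest pair was tasp-1 with K01G5.10, a haloacid dehalogenase-like gene, whose starts were 785 bp apart. The summit lay at -57 bp from the start of tasp-1 and -728 bp from that of K01G5.10. The pair of rpl-15 and K11H12.8, a growth hormone-inducible transmembrane protein gene, had the summit at -340 and -474 bp, and that of rpl-20 and Y17G9B.5 at -283 and -179 bp. In the former pair the ribosomal protein gene was the nearer, and in the latter it was not.

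Pairs of lower signal were E04F6.6 with pcrg-1 (-746 and -238 bp), nhl-2, a cofactor of miRNAs, with tag-340 (-841 and -582 bp), and ecps-1, which resembles a proteasome adaptor, with atx-2 (-775 and -63 bp). W08A12.2 and unc-132 (-224 and -990 bp) and the pair of drr-2, an RNA-binding protein gene, and set-16 (-177 and -169 bp, 86.4 and 111.5 in the replicates and 192.0 pooled) completed the first 8. The summit between drr-2 and set-16 was nearly midway, with 346 bp between the starts, while most of the 8 lay clearly nearer to 1 gene. Both starts were within 300 bp of the summit at 47 of the 130 peaks. The pair at hsp-60 and Y22D7AL.10, whose products form the mitochondrial chaperonin and its cofactor, was next in signal and was chosen after its values were seen (-609 and -204 bp).

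Most genes had a single summit. Of the 730, 703 had 1, 26 had 2 and sms-3 had 3. The sms-3 peaks had pooled signals of 267.4, 213.9 and 153.3, at -505, 179 and 175 bp from different transcript starts. Y69A2AR.31 had 274.9 and 177.3, ftt-2 had 202.5 and 104.9, and bet-2 had 181.7 and 87.4. The ftt-2 peaks overlapped, with summits at -561 and -764 bp, as did the bet-2 peaks, at -489 and -290 bp. A second summit thus need not be a separate peak, and merging overlapping peaks left 590 of the 600. Counts ran from 95 on chromosome X to 106 on chromosome I, and per Mb of chromosome from 4.73 on V to 7.47 on III. Genes with a peak made up 5.15% of those on III, 4.86% on I and 2.44% on V.

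Both replicates held nearly all of the 600 peaks. A replicate summit lay within 200 bp in both lists for 595 (99.2%), against 38.7% of the weaker promoter peaks. Other peaks with a signal of 70 or more had similar shares, 99.7% at short RNA genes and 98.9% outside promoters. This is a description, because the pooled list holds the reads of both replicates. The replicate values had medians of 41.3 in replicate 1 and 52.4 in replicate 2, and replicate 2 was higher at 419 of the 595 (70.4%). The ratio of replicate 2 to replicate 1 had a median of 1.27 and ran from 0.213 to 5.54. The ratio was over 2 at 75 peaks and under 0.5 at 6. At peaks with a signal of 70 or more beside short RNA genes the median ratio was 1.45, and at the weaker promoter peaks 1.16. Signal was not matched: its median was 151.2 at the peaks beside short RNA genes and 89.8 at the 600.

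The ratio was lowest at hsp-1, for a constitutive Hsp70 (77.8 in replicate 1 and 16.6 in replicate 2), then at mob-1 (65.8 and 15.2), at the second ftt-2 peak (92.7 and 37.1) and at smc-5, of a DNA repair complex (52.6 and 23.0). It was highest at cpg-1, for a proteoglycan of the eggshell (13.5 and 74.7), then at chp-1 (15.8 and 69.7), W01D2.3 (13.9 and 60.05) and rpl-16 (13.7 and 56.6). Each of these 8 was clearly higher in 1 replicate, and how far the nearest replicate summit was the same peak was not tested. A replicate 1 summit was missing at set-20, mes-6, icd-1 and mex-5, with 53.1, 58.1, 68.0 and 63.9 in replicate 2. A replicate 2 summit was missing at cogc-2, with 45.7 in replicate 1.

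Each replicate alone could choose the peaks by the same rule, taking its 1822 strongest nuclear peaks. Replicate 1 gave 625 promoter peaks, of which 581 (93.0%) had a replicate 2 summit and 304 (48.6%) were also among the strongest of replicate 2. Their median replicate 2 signal was 44.0, against 18.6 over all replicate 2 peaks. Replicate 2 gave 570, of which 536 (94.0%) had a replicate 1 summit and 304 (53.3%) were among its strongest. Their median replicate 1 signal was 36.9, against 16.3. Here the second replicate was not used for the choice, and the distance to the start (-223 and -210.5 bp) and the share of pairs (21.8% and 19.5%) were near those of the 600.

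**Figure D4:**
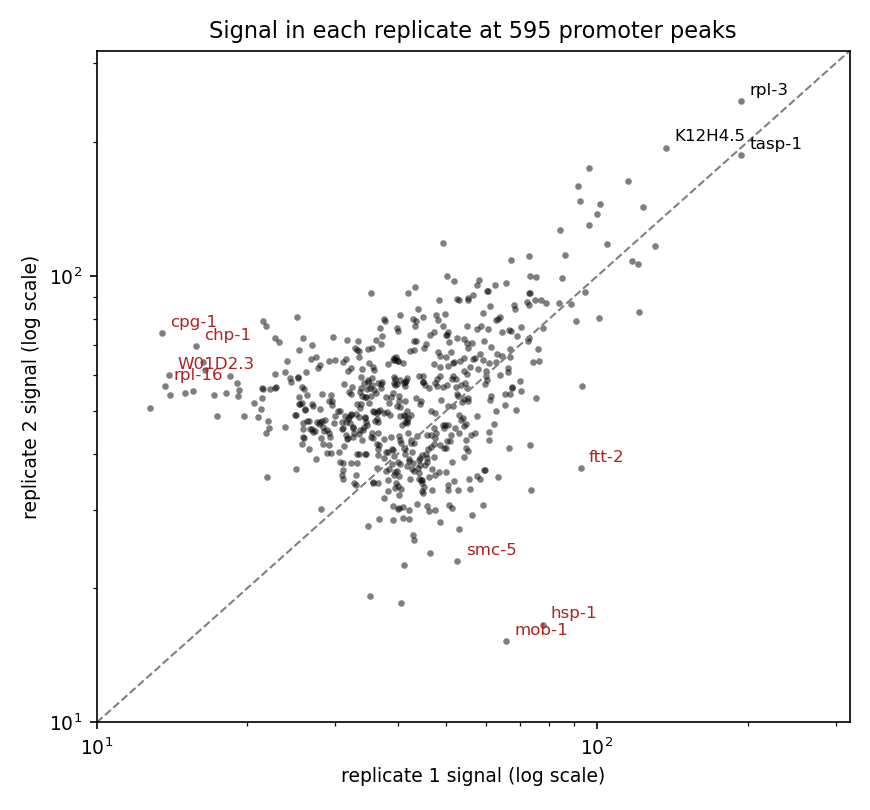
Signal in replicate 1 (x axis, log scale) and replicate 2 (y axis, log scale) at the 595 promoter peaks found in both, with equal values on the dashed line; the 8 peaks with the most extreme ratios and the 3 strongest are labelled. More points lie above the line than below, with cpg-1 (13.5 and 74.7) and hsp-1 (77.8 and 16.6) at its sides.

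At the threshold itself, the last peaks inside were nearest to F09C8.2 (70.16), mex-5 (70.14), rpl-16 (70.11) and sar-1 (70.10), and the first outside to gsa-1 (69.95), smr-1 (69.92), crh-1 (69.90) and eri-1 (69.90). The authors' list of reproducible peaks held 423 of the 600, and the other 177 had pooled signals of at most 79.4. The die-1 gene itself was not among the 730, since its 1 promoter peak, 470 bp upstream, had 19.3 in replicate 1, 32.1 in replicate 2 and 52.7 pooled. The strongest promoter peak of unc-119, whose rescue fragment marks many worm transgenes, had 23.0, 32.6 and 60.1 and was also below the threshold.

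Other RNA genes remained near some of the peaks, because the choice left out only 5 classes. A gene of the broad ncRNA class lay within 200 bp of 83 of the 600 (13.8%), against 5.42% of the weaker promoter peaks. Together with lincRNA genes (3) and a tRNA pseudogene (1), 86 peaks were near such a gene, since a peak can be near more than 1. Among the 25 strongest these were 7, namely the summits at pcrg-1, tag-340, T13C5.6, D2023.1, ftt-2 and Y69A2AR.31, which counts for both of its peaks. The tRNA pseudogene Y69A2AR.t3 lay 5 bp from the summit 234 bp upstream of Y69A2AR.31. The share was 28% for ranks 1 to 25, 21.6% for ranks 26 to 150 and 10% for the last 150. Their part in the signal was not tested.

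Several features moved with signal across promoter peaks, below the threshold as well as above it. From the weakest peaks (18 to 25) to those at 100 and above, the share upstream of the start went from 68.1% to 89.7%, and the share at pairs from 9.67% to 21.5%. The share near other ncRNA genes went from 4.65% to 21.03%, and the median GC content of the bases around the summit from 38.6% to 50.5%. Peaks just below the threshold (50 to 70) lay between these, with 77.6% upstream and 15.2% at pairs.

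**Figure D5:**
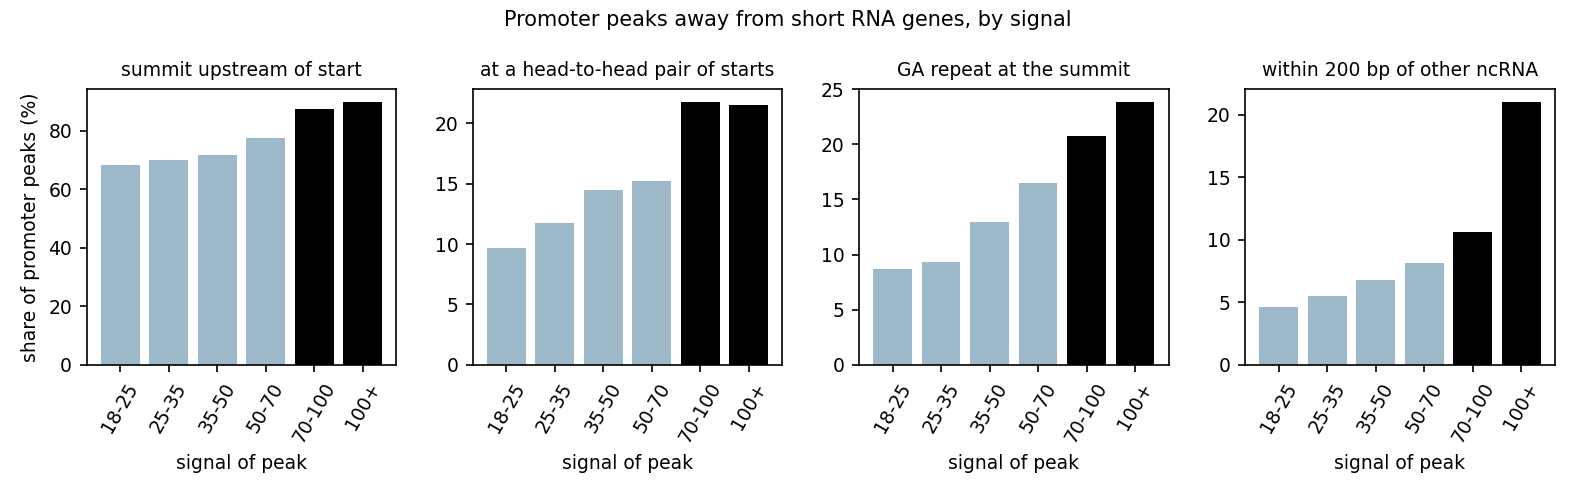
Share of promoter peaks (y axis, percent) with a summit upstream of the start, at a head-to-head pair, with GAGAGA within 50 bases of the summit, and within 200 bp of another ncRNA gene, in ranges of pooled signal (x axis), with those of 70 or more in black. Each share is higher in the 2 ranges of 70 or more than in any lower range, for example 21.8% and 21.5% at pairs against 15.2% and less.

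The DNA under the summits was richer in G and C than other promoter DNA. In the stretch reaching 50 bases to either side, the median GC content was 47.5%, against 39.6% at weaker promoter peaks. It was 32.7% in a stretch of the same length before each gene start. Other peaks at or above the signal threshold had medians of 49.5% at short RNA genes and 44.6% outside promoters. High GC content was thus not particular to the strong promoter peaks. The word GAGAGA, seen at K12H4.5 above, lay on either strand at 131 of the 600 (21.8%, interval 18.7 to 25.3), at 10.6% of weaker peaks and in 8.87% of promoters. Between 45 and 55% GC it was at 25.6% of 266 such peaks and 15.01% of 2425 weaker ones. ACACTC, seen at rpl-3, tasp-1, rpl-15 and Y17G9B.5, lay at 67 (11.2%), against 3.92% of weaker peaks and 3.24% of promoters, and within the GC range at 12.03% against 6.23%. This word and 5 others were searched only after words of 6 bases had been counted in these windows.

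GCGCGC and CGCGCG, which overlap each other, lay at 10% and 7.67%, against 2.31% and 1.95% of weaker peaks and 1.11% and 0.971% of promoters. Within the GC range GCGCGC was at 13.5% against 3.42%. CACACAC lay at 8.17% (weaker 2.18%, promoters 1.502%) and CTCCGCC, the word at atx-2, at 5% (weaker 2.25%, promoters 2.05%). GCGCGC and CACACAC were among the words searched only after the count of words, while CGCGCG and CTCCGCC were planned. Words of A and T were less frequent: TATAAA lay at 4.17%, against 10.9% of weaker peaks and 19.5% of promoters, but at 2.26% and 2.68% within the GC range. TTTCAG, the letters of a worm splice acceptor, lay at 8%, against 16.9% and 25.7%, and within the GC range at 7.14% against 10.02% of weaker peaks. These matches describe letters and name no bound factor.

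The A box core of tRNA genes (GCNNAGTGG), followed 25 to 75 bp later by the B box core (GTTCNANNC) within 100 bases of the summit, was found at 5 of the 600 peaks (0.833%), 15 of the weaker ones (0.152%) and 73 of 459 peaks at tRNA genes (15.9%). The 5 were at sms-3, with 2 of its 3 peaks (267.4 and 153.3), W08A12.2 (240.6), Y69A2AR.31 beside the tRNA pseudogene (177.3) and Y22D7AL.6 (128.4). The first of the sms-3 summits was 2933 bp and that of W08A12.2 23157 bp from the nearest annotated short RNA gene. All 5 were found in both replicates, with 60.4 to 123.8 in replicate 1 and 64.4 to 147.5 in replicate 2.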

How the data were processed

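ChIP-seq peak lists of DIE-1-eGFP worms were used on ce11, per the file headers and names: relaxed lists for each replicate (23789 and 29268 peaks) and for both pooled (30000), and a reproducible list (1432). Signal in the deposited lists is the authors' enrichment value and was used unchanged. The q-value column, −log10 in the authors' layout, reached 2.414 at most and was not used for ranks. The summit offset was read from the deposited lists in bp. Peak caller and aligner: not given in the sources used here. Lists on an older build were not used here.

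Summits were placed on Ensembl 115 gene models of WBcel235, the same assembly as ce11. Of 2811 genes without a name, 2563 took one from RefSeq by gene ID, and products are those of RefSeq. A replicate value is the signal of the nearest replicate summit within 200 bp, so neighbouring peaks can share one. A summit counted for each gene whose window held it. The 28 gene lists were drawn by name pattern, so a list can hold genes of other roles, and 20 motifs were planned with 6 added later. Windows for motifs reached 50 bases to either side of the summit, and promoters were stretches of the same length before 19973 gene starts. Sequences are those of the first 25 peaks outside exons and outside chromosome I, at most 8. Shares have 95% Wilson intervals. Software was Python 3.11.15, pandas 2.3.3, numpy 2.4.6, matplotlib 3.10.9 and, for intervals, scipy 1.17.1.

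Genes were named by rule: the nearest gene of the 25 strongest peaks (position for the first 10), up to 4 genes per list, the 8 strongest pairs, the 4 highest and 4 lowest replicate ratios, 4 peaks on each side of the threshold, 4 genes with most summits, die-1 and unc-119. Other genes named were chosen after their values were seen. The peaks, lists and rules were chosen with earlier results of these data known. Alternatives were other thresholds, windows, distances, merged peaks and each replicate alone.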

Additional observations from a re-analysis of the deposited data

How the results depend on the processing

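At a signal of 100 or more, 214 peaks and 267 genes were left, the median distance was -257.5 bp and 100% of peaks were in both replicates. In the reproducible list that share was 99.76%, and with replicate summits matched within 100 bp it was 91.83%. The narrow window (500 bp upstream to 100 bp downstream) gave a median distance of -180 bp and 17.72% of peaks at pairs, and the wide window (2000 and 500 bp) gave -296.5 bp and 31.98%. Distance to the gene start was -177 bp. Among summits up to 300 bp upstream, a choice made after seeing the data, 32% lay at pairs. With each replicate alone, the number of peaks ran from 570 to 625, the median distance from -223 to -210.5 bp and the share at pairs from 19.47 to 21.76%. No paired analysis was possible because the series holds 1 group. A distance of 500 bp from short RNA genes left 593 peaks and 722 genes. The removal of peaks near other RNA classes left 514 and 632, and the merging of overlapping peaks 590 and 730. A count was called moved at a change of 1.5-fold, which none of these reached. No distance or share over all peaks moved beyond its spread in these settings, but the removal moved the insulin list from 17.65 to 5.882%. Of the 28 gene lists, 23 moved at a signal of 100 or more, 7 in the reproducible list, and 3 when only the nearest start counted, where the large ribosomal subunit list had 14%, chaperones 11.76% and the nuclear pore list 9.302%. The share of all genes itself was 1.34% at a signal of 100 or more and 2.60% in the reproducible list. When only the nearest start counted, 575 of all 19973 genes had a peak. Of 26 motifs, 21 moved when the window reached 100 bases to either side, such as GAGAGA from 21.83 to 34.33%, since a longer window holds more letters. Depth is not in the files, so its effect was not tested.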
